A study of Mus musculus with 48 samples.

Results

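The comparison described here sets migratory dendritic cells (mDC) against resident dendritic cells (rDC) sorted from mouse lymph nodes labelled LN after PBS, with 3 libraries of each. These 6 of the 48 libraries were taken by their labels, without use of any measured value. Both groups were of wild type genotype, and both came from nodes that were digested before the sort. The other groups of the same design hold mDC and rDC of LN after cisplatin and of tumor-draining lymph nodes (TDLN) after PBS or cisplatin, and the remaining libraries are of macrophages. The labels give no strain, no age and no tissue drained by the LN nodes, and do not give the surface markers of the sort. The design text of the series speaks of mice with tumors, and the labels do not say whether the LN mice carried one. They do not state that replicate libraries stem from different animals, so p-values measure the spread between these libraries, which may be technical.

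Dendritic cells take up antigen and present it to T cells. Migratory dendritic cells sit in peripheral tissue, mature, switch on the chemokine receptor CCR7 and travel in lymph to the node. Resident dendritic cells enter the node from blood as precursors and sample antigen there. Dendritic cells comprise a cDC1 branch, known for cross-presentation to CD8 T cells, and a cDC2 branch, known for presentation to CD4 T cells.

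The mDC libraries held 2.69, 2.00 and 2.42 M counts, against 14.9, 10.7 and 14.6 M counts in the rDC libraries, so that depth and cell type cannot be told apart within these 6 libraries. In TDLN PBS the depths were the other way round (11.4 to 15.5 M counts in mDC and 2.72 to 3.84 M in rDC), and in LN cisplatin they were alike (2.51 to 3.65 M and 2.99 to 3.57 M). The second rDC library stood apart: it had counts in 27541 genes, against 38519 and 37078 in the others. Its chi-square per degree of freedom was 6.86 and 5.89 against these, which had 2.70 between them. All replicate pairs differed by more than sampling noise, so none was counted as 1 sample. Levels are given as CPM, the counts scaled to library size by TMM, which allow one gene to be compared between libraries. TPM values, which take transcript length into account, are used to compare genes. Fold changes are log2 of mDC over rDC ± standard error, from edgeR's quasi-likelihood test. That standard error was derived as the absolute log2 fold change over the square root of the test's F statistic. It can be too small where a group has few counts, as for Cxcl1 with 13 counts over the rDC libraries. P-values were adjusted by Benjamini-Hochberg over all 14548 genes tested, and "called" means an adjusted p under 0.05. Means carry the SD of n = 3 libraries per group.

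The expression programmes of the 2 cell types differed over most of the transcriptome. Of 14548 genes tested 4586 (31.5%) were higher in mDC and 5098 (35.0%) lower, and 3095 (21.3%) and 2569 (17.7%) also changed at least 2-fold. The balance of directions depended on the scaling and the method. Higher and lower calls in mDC were 4959 and 4577 with DESeq2, and 4939 and 4662 with its size factors in edgeR. With limma on log2(TPM + 1) they were 2948 and 5955, and those of at least 2-fold were 1716 and 3174. The limma run also changed the measure and the test, so its shift cannot be put down to scaling alone. The median log2 fold change over all genes was -0.065. These shares are the background for each list below, and the 6 libraries separated without overlap in 70.8% of all genes. The lists overlap in part, and their members are described by counts and medians, with no test of the list.

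Genes at low levels behaved differently from the rest. Among 2929 genes with a mean under 4 CPM, 44.1% were called higher in mDC and 11.7% lower, and their median log2 fold change was 0.95 in LN PBS. It was -0.17 after cisplatin in LN, and -0.98 and -0.26 in TDLN after PBS and after cisplatin. Of the 1269 such genes that were called at least 2-fold higher in mDC, 24.9% were called higher in mDC of TDLN PBS as well, and 49.1% were called lower there, where the mDC libraries were the deep ones. In LN cisplatin 20.6% of them were called higher and 1.02% lower. Of the 334 genes under 4 CPM called at least 2-fold lower in mDC, 72.5% were called lower and 2.69% higher in TDLN PBS. For the 1826 genes of at least 4 CPM that were called 2-fold higher, 89.2% were called higher and 5.42% lower in TDLN PBS, and 88.1% were called higher in LN cisplatin, where depths were alike. Of the 2235 genes of at least 4 CPM called 2-fold lower, 88.9% and 90.2% were called lower in TDLN PBS and in LN cisplatin. After each library was thinned to 2.00 M counts, genes with a count numbered 27412 to 30544 in mDC and 19576 to 24510 in rDC, so that more genes were seen in mDC at equal depth. Gm10800, a predicted gene of satellite-like repeat sequence named after its values were seen, stood at 52636 ± 4416 TPM in mDC and 20050.0 ± 7054 TPM in rDC (log2 fold change 1.67 ± 0.23). Its log2 fold changes were -0.015 (LN cisplatin), -1.45 (TDLN PBS) and -0.068 (TDLN cisplatin) in the other conditions, so that its sign went with that of the median of the low range in the PBS groups. The part of depth and of such transcripts in the low range was not tested, and the genes under 4 CPM named below are Cd70, Il33 and Il1rl1.

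The genes known for maturation and migration were higher in mDC almost without exception. Of 36 list members, all tested, 35 were higher and 1, Cd86, was lower, against a background of 31.5% and 35.0%. Their median log2 fold change was 3.78, against -0.065 over all genes. Summed over the list the level was 78619 to 83200.3 CPM in mDC and 6848 to 7195 CPM in rDC. Ccr7, the receptor that guides dendritic cells along lymphatics (ENSMUSG00000037944, GRCm38 chromosome 11, 99144196 to 99155077, minus strand), had 14423, 14040.0 and 14864 CPM in the mDC libraries, against 1018, 1113 and 1069 CPM in the rDC libraries. The groups were far apart, with a log2 fold change of 3.76 ± 0.064 (adjusted p = 1.5e-27). Fscn1, the actin-bundling protein fascin of dendrites (ENSMUSG00000029581, GRCm38 chromosome 5, 142960343 to 142973185, plus strand), had 8820.0, 9025 and 8696 CPM in the mDC libraries, against 110.2, 94.3 and 105 CPM in the rDC libraries. Its log2 fold change was 6.42 ± 0.11 (adjusted p = 1.56e-27).

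Other members of that programme had similarly separate groups. Cacnb3, a subunit of voltage-gated calcium channels, averaged 3448 ± 140.4 CPM in mDC and 15.1 ± 3.16 CPM in rDC (log2 fold change 7.82 ± 0.13). Apol7c, an apolipoprotein L family member, averaged 6782 ± 311 CPM in mDC and 61.9 ± 0.847 CPM in rDC (6.78 ± 0.081). Tmem123, a transmembrane mucin-like protein, averaged 9977 ± 1503 CPM in mDC and 353 ± 20.6 CPM in rDC (4.82 ± 0.13). Il4i1, an amino acid oxidase secreted by mature dendritic cells, averaged 3071 ± 80.2 CPM in mDC and 206 ± 10 CPM in rDC (3.90 ± 0.074), and Marcksl1, an actin regulator, averaged 3001 ± 25.2 CPM in mDC and 254 ± 4.77 CPM in rDC (3.56 ± 0.066). Socs2, a feedback inhibitor of cytokine signals, averaged 588 ± 44.6 CPM in mDC and 4.54 ± 0.595 CPM in rDC (6.99 ± 0.13). The nudix hydrolase gene Nudt17 averaged 939 ± 121 CPM in mDC and 4.17 ± 1.39 CPM in rDC (7.77 ± 0.14), and Cd63, a tetraspanin of endosomes, averaged 914 ± 38.8 CPM in mDC and 28.4 ± 0.223 CPM in rDC (5.01 ± 0.071). Il15ra, which presents IL-15 to other cells, and its ligand Il15, a member of the cytokine list, had log2 fold changes of 5.47 ± 0.11 and 4.54 ± 0.14. Il12b, the shared subunit of IL-12 and IL-23, had 508, 627 and 564 CPM in the mDC libraries, against 54.1, 55.3 and 54.4 CPM in the rDC libraries.

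**Figure D1:**
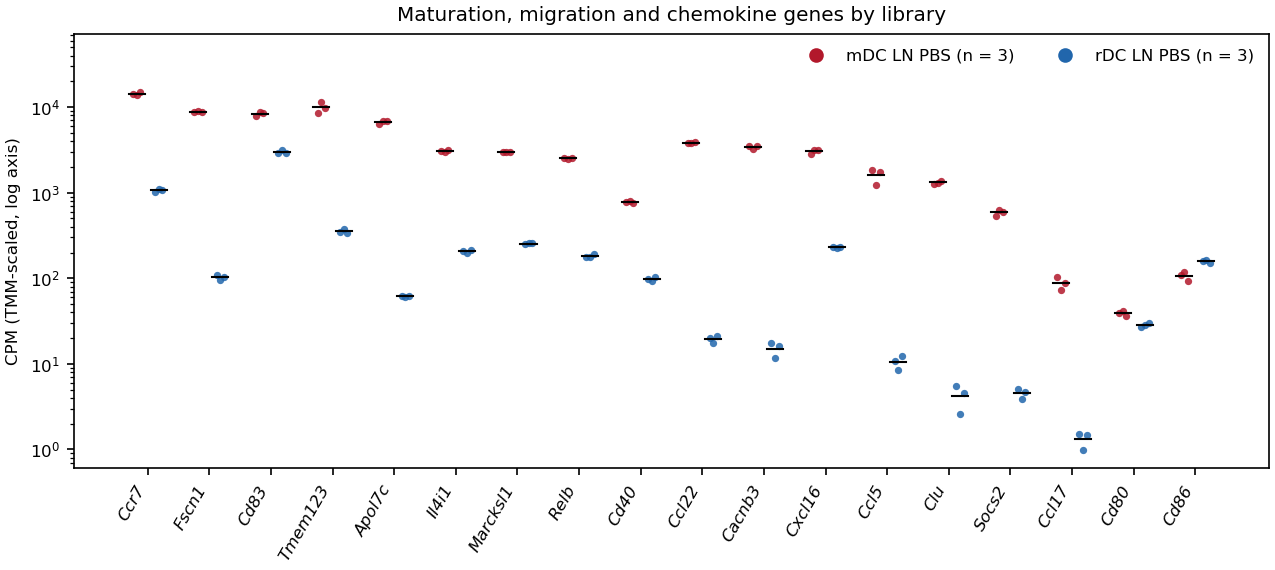
CPM on a log axis for 18 genes of maturation, migration and chemokine biology, with 1 point per library, mDC LN PBS left of rDC LN PBS, and a bar at the mean of 3 libraries. Fscn1 libraries lie between 8696 and 9025 CPM in mDC and between 94.3 and 110.2 CPM in rDC, while Cd80 and Cd86 at the right differ little and Cd86 is lower in mDC.

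Chemokines and their receptors were divided. Of 45 tested members of a list of 50, 16 were higher and 19 lower, shares of the same order as the background, with a median of -0.074. Ccl22 and Ccl17, ligands of CCR4 on T cells, were both higher: Ccl22 had 3837, 3799.6 and 3918 CPM in the mDC libraries, against 20.2, 17.6 and 21.4 CPM in the rDC libraries (7.60 ± 0.09, adjusted p = 7.93e-31), and Ccl17 averaged 87.6 ± 15 CPM in mDC and 1.33 ± 0.307 CPM in rDC (6.0 ± 0.17). Ccl5, a T cell attractant, averaged 1602 ± 322 CPM in mDC and 10.5 ± 1.96 CPM in rDC (7.24 ± 0.15). Cxcl16, the ligand of CXCR6, averaged 3069.6 ± 181 CPM in mDC and 229.8 ± 4.18 CPM in rDC (3.74 ± 0.067), and Cx3cl1, the ligand of CX3CR1, 324 ± 23.6 CPM in mDC and 1.72 ± 0.962 CPM in rDC (7.46 ± 0.16). Cxcl1, a neutrophil attractant, had 143, 147 and 176 CPM in the mDC libraries, against 0.443, 0 and 0.388 CPM in the rDC libraries. No mDC library came near the rDC range, and the log2 fold change of 8.89 ± 0.19 rests on an rDC level close to 0. Per length, the order in mDC was Ccl5 (4658 TPM), Ccl22 (2430.3 TPM), Cxcl16 (2207 TPM), Ccl17 (266 TPM), Cxcl1 (208 TPM) and Cx3cl1 (139 TPM). Ccl4, another inflammatory chemokine, ran the other way, with 11.3, 7.87 and 7.78 CPM in the mDC libraries, against 501, 458 and 498 CPM in the rDC libraries (-5.73 ± 0.18, adjusted p = 2.73e-21).

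Among the receptors Ccr7 and Ccrl2, an atypical receptor of chemerin, were higher (3.76 and 1.81 log2). Lower in mDC were the cDC1 receptor Xcr1 (12.7 ± 4.42 CPM in mDC and 216 ± 6.95 CPM in rDC, -4.11 ± 0.15), the monocyte receptor Ccr2 (7.75 ± 2.01 CPM in mDC and 155 ± 5.69 CPM in rDC, -4.31 ± 0.19), Cx3cr1 (-3.45 ± 0.15), Cxcr3 (-4.17 ± 0.27), the gut-homing receptor Ccr9 (-4.85 ± 0.11) and the follicle receptor Cxcr5 (-3.81 ± 0.12). S1pr1, which senses sphingosine 1-phosphate and guides exit from nodes, averaged 26 ± 3.08 CPM in mDC and 204 ± 14.7 CPM in rDC (-2.98 ± 0.13). Several of these receptors are also carried by B cells, monocytes or plasmacytoid dendritic cells, whose marker levels are given with the subset genes. Bulk libraries cannot tell fewer cells of a type from less RNA per cell.

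Genes of the NF-kB pathway, a family of transcription factors that relay danger and TNF-family signals and switch on maturation genes, were mostly higher in mDC. Of 30 members, all tested, 24 were higher, 2 were lower and 4 were not called, with a median of 1.31. Relb, the factor of the alternative branch, had 2575, 2503 and 2546 CPM in the mDC libraries, against 179, 176 and 191 CPM in the rDC libraries (3.8 ± 0.092, adjusted p = 3.58e-24). Its partner Nfkb2 averaged 896 ± 15.2 CPM in mDC and 335 ± 15.6 CPM in rDC (1.42 ± 0.07), and Map3k14, the kinase NIK that sets that branch off, 483 ± 17.7 CPM in mDC and 125 ± 0.911 CPM in rDC (1.96 ± 0.084). The inhibitors were higher as well: Nfkbia, which holds NF-kB in the cytoplasm, had 4637, 4053 and 4707 CPM in the mDC libraries, against 508, 465 and 542 CPM in the rDC libraries (3.14 ± 0.11), and Tnfaip3, the deubiquitinase A20, averaged 3404 ± 182 CPM in mDC and 564 ± 33.3 CPM in rDC (2.59 ± 0.059). Adaptors of TNF receptors followed, with Traf1 at 3.01 ± 0.083, Birc2 at 3.33 ± 0.11 and Birc3 at 2.01 ± 0.064. Rela and Rel had 1.42 ± 0.073 and 0.84 ± 0.11. The members lower in mDC were Nfkb1, the precursor of p50, with 60.5 ± 4.51 CPM in mDC and 217 ± 7.51 CPM in rDC (-1.85 ± 0.082), and the kinase gene Chuk (-0.64 ± 0.15).

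Promoter sequence is shown for 4 genes of the higher group, because letters of the kB motif, the DNA word that NF-kB dimers bind, occur in them. The 250 bases before the start are printed 5′ to 3′ on the gene's strand from the RefSeq table of GRCm38.p6, with matches on either strand in capitals. The letters searched were GGG, any pair of bases, then TTTCC. Counting both orientations they occur in 1.41% of 32851 such windows. They were chosen after 13 patterns had been tried on 22 genes found in the table out of 32 looked up, of which 4 held them. Ccr7, Relb, Cd40, Cd83, Cd86, Clu and Cxcl16 were among those without an entry. A match is a description of letters and shows no binding.
Nfkb2 (chr19:46304487-46304736, plus strand): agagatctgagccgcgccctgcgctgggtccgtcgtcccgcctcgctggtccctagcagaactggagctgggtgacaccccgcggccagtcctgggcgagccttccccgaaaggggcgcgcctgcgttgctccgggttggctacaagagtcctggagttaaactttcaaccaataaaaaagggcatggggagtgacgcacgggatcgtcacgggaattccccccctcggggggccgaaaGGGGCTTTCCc
Nfkbia (chr12:55492648-55492897, minus strand): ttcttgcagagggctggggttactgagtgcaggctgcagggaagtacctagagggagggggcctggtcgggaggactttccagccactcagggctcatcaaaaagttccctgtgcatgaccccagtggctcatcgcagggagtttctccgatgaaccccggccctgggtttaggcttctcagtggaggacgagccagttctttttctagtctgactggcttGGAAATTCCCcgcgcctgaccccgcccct
Cxcl1 (chr5:90890995-90891244, plus strand): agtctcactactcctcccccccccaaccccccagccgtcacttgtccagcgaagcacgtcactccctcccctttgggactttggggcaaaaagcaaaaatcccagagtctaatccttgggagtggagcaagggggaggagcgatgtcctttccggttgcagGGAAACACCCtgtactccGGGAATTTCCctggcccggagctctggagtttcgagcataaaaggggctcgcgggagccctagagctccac
B2m (chr2:122147437-122147686, plus strand): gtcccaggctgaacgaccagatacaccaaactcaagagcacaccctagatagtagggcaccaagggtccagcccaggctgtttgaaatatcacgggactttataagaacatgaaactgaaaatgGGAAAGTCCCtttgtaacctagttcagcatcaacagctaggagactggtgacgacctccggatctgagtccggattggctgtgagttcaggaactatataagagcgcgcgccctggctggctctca
Nfkb2 has 3 listed starts, of which the first that holds the letters is shown, so the start was chosen for its match. Nfkb2 holds that match 11 to 2 bases before the start, Nfkbia 29 to 20, and B2m 126 to 117. Cxcl1 holds a pair of matches, 89 to 80 and 71 to 62 bases before the start. Their log2 fold changes were 1.42 for Nfkb2, 3.14 for Nfkbia, 8.89 for Cxcl1 and 1.53 for B2m.

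Costimulatory and checkpoint molecules, the surface signals that decide what a T cell does with antigen, were mostly higher in mDC. Of 26 tested members of 30, 18 were higher and 8 lower, with a median of 1.52. Cd40, the receptor of T cell help, had 775, 798 and 766 CPM in the mDC libraries, against 97.9, 93.6 and 104 CPM in the rDC libraries (2.99 ± 0.072). Icam1, an adhesion ligand of LFA-1, averaged 3065 ± 36.9 CPM in mDC and 323 ± 16.6 CPM in rDC (3.25 ± 0.073), and Cd83, a maturation marker that stabilises MHC class II, 8372 ± 526 CPM in mDC and 2967 ± 152 CPM in rDC (1.5 ± 0.055). The inhibitory ligands Cd274, or PD-L1, and Pdcd1lg2, or PD-L2, averaged 454 ± 35.3 CPM in mDC and 67.7 ± 2.85 CPM in rDC (2.74 ± 0.084) and 26.1 ± 1.9 CPM in mDC and 9.5 ± 0.446 CPM in rDC (1.46 ± 0.21). Of TNF family ligands Tnfsf9 averaged 443 ± 34.7 CPM in mDC and 89 ± 2.2 CPM in rDC (2.32 ± 0.085) and Tnfsf4, or OX40L, 16.2 ± 4.23 CPM in mDC and 0.585 ± 0.185 CPM in rDC (4.77 ± 0.35). The receptors Tnfrsf4, or OX40, and Tnfrsf9, or 4-1BB, were also higher, at 243 ± 15 CPM in mDC and 2.36 ± 0.911 CPM in rDC (6.62 ± 0.17) and 218 ± 21.3 CPM in mDC and 2.85 ± 0.192 CPM in rDC (6.24 ± 0.12). Icosl, the ligand of ICOS, and Pvr, the ligand of CD226 and TIGIT, had 1.81 ± 0.061 and 2.37 ± 0.078. Cd70, the ligand of CD27, had 36 counts over the mDC libraries and 3 over the rDC libraries, a ratio of 79.4-fold (95% counting interval 25.1 to 403).

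The classical pair Cd80 and Cd86, both ligands of CD28, did not follow. Cd80 had 39.7, 41 and 36.6 CPM in the mDC libraries, against 27.2, 28.2 and 29.7 CPM in the rDC libraries, a small rise of 0.46 ± 0.11 (adjusted p = 0.00072), which was not called on log2(TPM + 1) with limma (adjusted p = 0.422) or with no filter on low counts (adjusted p = 0.984). Cd86 had 108, 119.7 and 92.4 CPM in the mDC libraries, against 160.4, 162 and 152 CPM in the rDC libraries, and was lower in mDC (-0.57 ± 0.11, adjusted p = 3.84e-05) under every alternative run. Lower too were the inhibitory receptors Btla (15.5 ± 2.5 CPM in mDC and 259 ± 25.2 CPM in rDC, -4.08 ± 0.19) and Havcr2, or TIM-3 (15.8 ± 2.68 CPM in mDC and 139 ± 13.1 CPM in rDC, -3.14 ± 0.18), and its ligand Lgals9 (-3.08 ± 0.14).

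**Figure D2:**
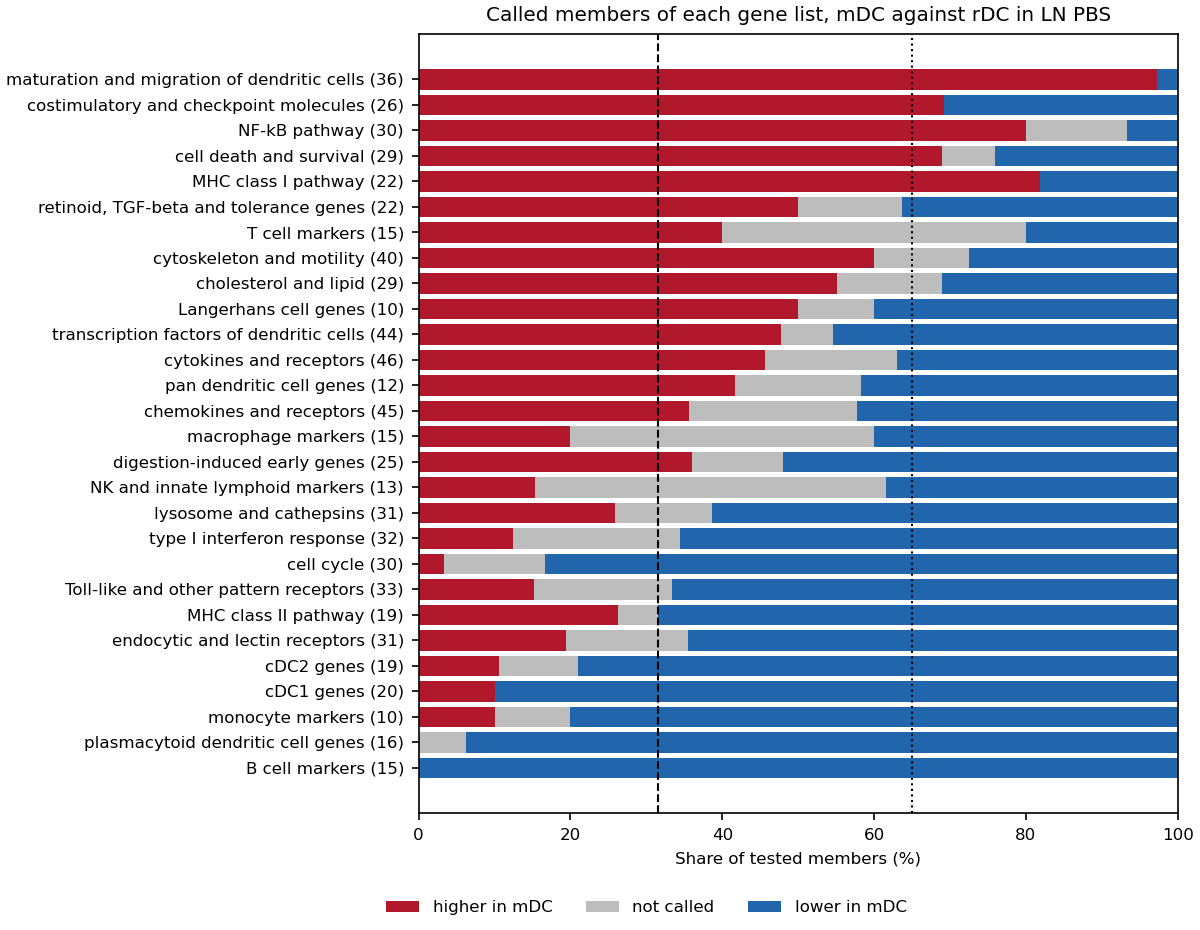
Share of tested members of each list that was called higher in mDC, not called or called lower in mDC (edgeR, adjusted p under 0.05), with the number tested in brackets, ordered by median log2 fold change. Lists with at least 10 tested members are shown. The dashed and dotted lines mark the shares over all genes, 31.5% higher and, from the right, 35.0% lower.

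Antigen presentation genes differed in direction by class. MHC class II displays peptides from outside the cell to CD4 T cells, and its genes are switched on by the transactivator CIITA. Of 19 class II pathway genes, all tested, 13 were lower in mDC, 5 higher and 1 not called, with a median of -1.31, and their sum was 23763 to 25449 CPM in mDC and 61394 to 63293 CPM in rDC. Cd74, the invariant chain, had 13538, 12306 and 13092 CPM in the mDC libraries, against 29477, 28841 and 29939 CPM in the rDC libraries (-1.18 ± 0.09, adjusted p = 2.41e-12). H2-Ab1, the beta chain of I-A, had 4003, 3693 and 3842 CPM in the mDC libraries, against 15025, 14369 and 15229 CPM in the rDC libraries (-1.95 ± 0.092). H2-Aa and H2-Eb1 averaged 2857 ± 54.1 CPM in mDC and 7067 ± 67.9 CPM in rDC (-1.31 ± 0.059) and 2460.4 ± 150.5 CPM in mDC and 5618 ± 84.5 CPM in rDC (-1.19 ± 0.075). The groups did not overlap in any of these 4 genes. They stayed abundant in both cell types, with Cd74 at 14895 ± 653 TPM in mDC and 41501 ± 577 TPM in rDC.

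Several genes that load or regulate class II had log2 fold changes of larger size than Cd74, H2-Ab1, H2-Aa and H2-Eb1, a difference between genes that was not tested. The peptide editors H2-DMa and H2-DMb1 had -2.83 ± 0.10 and -2.91 ± 0.09, and their inhibitors H2-Oa and H2-Ob -2.54 ± 0.15 and -4.32 ± 0.11. H2-Ob, known from B cells, averaged 30 ± 1.75 CPM in mDC and 597 ± 55.8 CPM in rDC. March1, the ligase that removes class II from the surface, averaged 5.9 ± 1.96 CPM in mDC and 102 ± 3.16 CPM in rDC (-4.11 ± 0.20), and Ciita 141 ± 10.7 CPM in mDC and 766 ± 15.2 CPM in rDC (-2.44 ± 0.098). The proteases split: Ctsl averaged 13.7 ± 3.27 CPM in mDC and 265 ± 9.73 CPM in rDC (-4.25 ± 0.11), while Lgmn and Ifi30, a lysosomal thiol reductase, were higher (1.20 ± 0.075 and 1.15 ± 0.11), as was H2-Eb2 (1.72 ± 0.13). B cells carry class II genes, and in the same libraries the 15 B cell markers, all tested and all lower in mDC, summed to 271 to 301 CPM in mDC and 5259 to 6054 CPM in rDC. Their part in the class II difference was not tested.

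The promoters of H2-Aa and H2-Eb1 are shown because class II promoters share an X box and a Y box, the landing sites of RFX and NF-Y. Matches of ATTGG, the core of the Y box, and of CTAGCAAC, letters of the X box of class II promoters, are in capitals. In either orientation ATTGG occurs in 33.8% of all windows of this length and CTAGCAAC in 1.13%. Both were among the 13 patterns tried, and of the 22 genes found 9 held ATTGG and 1 held CTAGCAAC.
H2-Aa (chr17:34287824-34288073, minus strand): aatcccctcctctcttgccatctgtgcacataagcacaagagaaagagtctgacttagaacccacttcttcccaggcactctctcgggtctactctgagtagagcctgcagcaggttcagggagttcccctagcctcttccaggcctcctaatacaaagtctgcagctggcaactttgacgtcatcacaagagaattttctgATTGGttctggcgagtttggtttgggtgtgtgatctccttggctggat
H2-Eb1 (chr17:34305617-34305866, plus strand): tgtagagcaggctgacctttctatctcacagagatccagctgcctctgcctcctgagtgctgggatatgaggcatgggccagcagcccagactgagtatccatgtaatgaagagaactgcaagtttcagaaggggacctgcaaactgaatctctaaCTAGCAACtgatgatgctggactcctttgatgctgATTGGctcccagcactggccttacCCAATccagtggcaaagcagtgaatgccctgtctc
H2-Aa holds ATTGG 48 to 44 bases before its start and H2-Eb1 59 to 55 and, on the other strand, 35 to 31. H2-Eb1 holds CTAGCAAC 94 to 87 bases before its start. H2-Aa does not hold these exact letters in the window, but it holds ctggcaac, which differs from them by a base. The lack of an exact match does not show that an X box is absent. H2-Ab1, Cd74 and Ciita had no entry.

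MHC class I, which displays peptides from inside the cell to CD8 T cells, was higher in mDC. Of 22 genes, all tested, 18 were higher and 4 lower, with a median of 1.15, and the sum was 40262 to 42825 CPM in mDC and 16455 to 17206 CPM in rDC. H2-K1 had 8898, 8539 and 9062 CPM in the mDC libraries, against 2742, 2623 and 2785 CPM in the rDC libraries (1.70 ± 0.08, adjusted p = 3.1e-17). H2-D1 and the light chain B2m averaged 15672 ± 495 CPM in mDC and 5752 ± 226 CPM in rDC (1.45 ± 0.081) and 2992 ± 244 CPM in mDC and 1039.6 ± 24.3 CPM in rDC (1.53 ± 0.073). Nlrc5, the transactivator of class I genes, averaged 538 ± 35.5 CPM in mDC and 167 ± 14.1 CPM in rDC (1.69 ± 0.073), against the fall of Ciita. Loading and proteasome genes rose by different amounts: Tapbpl by 2.66, Psme2 by 2.26, Tapbp by 1.27, Psmb8 by 1.13, and the peptide transporter genes Tap2 and Tap1 by 0.74 and 0.45. The call of Tap1 was lost with no filter on low counts (adjusted p = 0.99). Lower were the chaperones Pdia3 (-1.07 ± 0.083) and Calr (-0.71 ± 0.063), Canx, and Cybb, the NADPH oxidase subunit that slows antigen breakdown in phagosomes (35.8 ± 7.45 CPM in mDC and 503 ± 18.9 CPM in rDC, -3.83 ± 0.12). H2-K1, H2-D1 and other class I genes have close paralogs among which reads can be split, so their single values are uncertain.

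**Figure D3:**
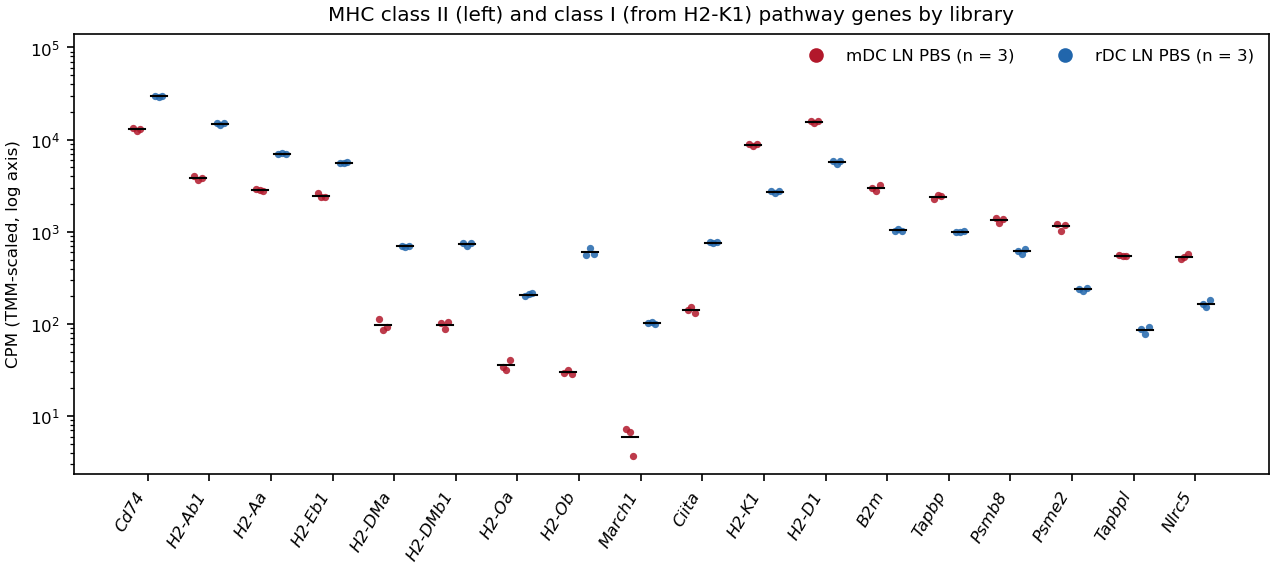
CPM on a log axis for 10 class II pathway genes at the left and 8 class I pathway genes from H2-K1 on, with 1 point per library, mDC LN PBS left of rDC LN PBS, and a bar at the mean of 3 libraries. The genes shown are a choice: all 10 class II genes shown are lower in mDC, and all 8 class I genes shown are higher. Of all 19 class II pathway genes 13 were called lower and 5 higher, and of all 22 class I pathway genes 18 higher and 4 lower. Over all genes tested 31.5% were called higher and 35.0% lower.

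Genes of the cDC1 and cDC2 branches were mostly lower in mDC. These lists were drawn up by branch and not by residence. The cDC1 list summed to 2764 to 2984 CPM in mDC and 7016 to 7022 CPM in rDC, and the cDC2 list to 2136 to 2298 CPM in mDC and 3440.0 to 3586 CPM in rDC. Of 20 cDC1 genes, all tested, 18 were lower and 2 higher, with a median of -2.87. Clec9a, a receptor for dead cells, averaged 4.39 ± 0.701 CPM in mDC and 61.4 ± 1.33 CPM in rDC (-3.81 ± 0.20), Tlr3, a sensor of double-stranded RNA, 3.02 ± 0.933 CPM in mDC and 67 ± 5.79 CPM in rDC (-4.42 ± 0.29), and Cd8a 82.3 ± 8.35 CPM in mDC and 180.4 ± 6.04 CPM in rDC (-1.14 ± 0.077). Rab7b, a GTPase of late endosomes, averaged 10.9 ± 0.702 CPM in mDC and 279 ± 2.38 CPM in rDC (-4.67 ± 0.14). The 2 higher members were the transcription factors Id2 (1336 ± 105 CPM in mDC and 161 ± 8.88 CPM in rDC, 3.06 ± 0.09) and Batf3 (119 ± 11.9 CPM in mDC and 23.3 ± 3.29 CPM in rDC, 2.35 ± 0.12), while Irf8, which acts with Batf3 in cDC1, was lower (927 ± 5.32 CPM in mDC and 2201 ± 95.3 CPM in rDC, -1.25 ± 0.069).

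Of 19 tested cDC2 genes of 20, 15 were lower, 2 higher and 2 not called, with a median of -2.25. The lectins Cd209a (18.4 ± 1.71 CPM in mDC and 347 ± 15.7 CPM in rDC, -4.23 ± 0.10) and Clec10a (-4.73 ± 0.24) and Cd4 (-3.11 ± 0.13) were far lower. Sirpa, an inhibitory receptor that marks cDC2, averaged 230.1 ± 17 CPM in mDC and 437 ± 15.8 CPM in rDC (-0.93 ± 0.066), and Irf4, a factor of cDC2 and of migration, 89.2 ± 10.9 CPM in mDC and 169 ± 5.95 CPM in rDC (-0.93 ± 0.092). Tnfrsf11a, the receptor RANK, and Esam, an adhesion molecule, were higher, with 464 ± 22.9 CPM in mDC and 21.9 ± 1.48 CPM in rDC (4.39 ± 0.098) and 50.4 ± 11.8 CPM in mDC and 4.49 ± 0.812 CPM in rDC (3.47 ± 0.22).

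Langerhans cells, the dendritic cells of the epidermis, are one source of migratory cells. Of 10 tested genes of 12, 5 were higher and 4 lower. All 4 lower genes were at least 2-fold lower, and 3 of the 5 higher genes were at least 2-fold higher. The list summed to 241 to 288 CPM in mDC and 444 to 482 CPM in rDC, so its sum was lower in mDC. Cd207, or langerin, had 31.6, 45.5 and 45.7 CPM in the mDC libraries, against 39.4, 45.6 and 39.6 CPM in the rDC libraries, with overlapping groups (-0.032 ± 0.15, adjusted p = 0.855). Epcam, an epithelial adhesion molecule, averaged 23.2 ± 2.59 CPM in mDC and 10.9 ± 0.793 CPM in rDC (1.09 ± 0.18), and Ltc4s, the leukotriene C4 synthase, 35.3 ± 8.36 CPM in mDC and 0.221 ± 0.148 CPM in rDC (7.12 ± 0.30). Of the 12 genes shared by dendritic cells 5 were higher and 5 lower. The dendritic cell factor Zbtb46 had 477, 517 and 526 CPM in the mDC libraries, against 147, 144 and 146 CPM in the rDC libraries (1.80 ± 0.066), and Flt3, the growth factor receptor of the lineage, averaged 716 ± 21 CPM in mDC and 484 ± 0.151 CPM in rDC (0.57 ± 0.057), a call that was lost with no filter on low counts (adjusted p = 0.319). Itgax, the CD11c gene, was lower, with 101 ± 7.92 CPM in mDC and 253 ± 2.91 CPM in rDC (-1.32 ± 0.082), as were Kit (-2.71 ± 0.11) and Kmo (-5.07 ± 0.14). Zbtb46, Flt3 and Itgax were thus present in every library of both sorts.

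The rDC libraries also carried RNA of genes that mark other cells. Of 16 plasmacytoid dendritic cell genes, all tested, 15 were lower in mDC and none higher, with a median of -4.29 and sums of 323 to 332 CPM in mDC and 4374 to 4614 CPM in rDC. Siglech, a lectin of plasmacytoid cells, had 7.3, 7.3 and 7.32 CPM in the mDC libraries, against 908, 815 and 873 CPM in the rDC libraries (-6.88 ± 0.12, adjusted p = 5.25e-27). Ly6d (15.8 ± 6.45 CPM in mDC and 589 ± 22 CPM in rDC, -5.18 ± 0.20), the factor Tcf4 (-2.21 ± 0.075), Irf7 (-3.28 ± 0.13) and Tlr7 (-4.61 ± 0.33) followed. Of the B cell markers Cd79a, a chain of the antigen receptor complex, had 37.3, 29.2 and 32.5 CPM in the mDC libraries, against 636, 740.3 and 677 CPM in the rDC libraries (-4.36 ± 0.11), and Ms4a1, or CD20, averaged 23.3 ± 5.24 CPM in mDC and 367 ± 53.9 CPM in rDC (-4.0 ± 0.19). Of 10 monocyte markers, all tested, 8 were lower and 1 higher, and they summed to 93.6 to 99.3 CPM in mDC and 1904 to 1987 CPM in rDC. Of 15 tested macrophage markers of 16, 6 were lower and 3 higher, with sums of 723 to 776 CPM in mDC and 2896 to 2987 CPM in rDC, most of it Lyz2, or lysozyme (536 ± 38.1 CPM in mDC and 2325 ± 49.8 CPM in rDC, -2.12 ± 0.06) and the CSF1 receptor gene Csf1r (70.9 ± 2.87 CPM in mDC and 358 ± 17.2 CPM in rDC, -2.34 ± 0.091). The defining macrophage markers Adgre1, C1qa and Siglec1 were low in both, at 39.6 against 65.6 CPM, 11.1 against 28.8 CPM and 11 against 2.27 CPM in mDC and rDC.

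The other marker lists summed to less. T cell markers (15 tested) summed to 305 to 332 CPM in mDC and 185 to 225 CPM in rDC, with 6 higher and 3 lower. Their median log2 fold change was 0.61 in LN PBS, but -1.52 (LN cisplatin), -1.94 (TDLN PBS) and -0.57 (TDLN cisplatin). The difference of LN PBS from the other conditions was called positive for all 15, against 13.4% of all genes. NK and innate lymphoid markers (13 tested) summed to 85.5 to 103 CPM in mDC and 135 to 159.7 CPM in rDC, with 2 higher and 5 lower. The NK median was -0.35 in LN PBS and -3.43 (LN cisplatin), -2.86 (TDLN PBS) and -2.20 (TDLN cisplatin), with 9 differences called, all positive. Neutrophil markers (6 tested of 14, with 3 of the 14 at 0 counts in mDC) summed to 8.23 to 10.9 CPM in mDC and 31.3 to 35.6 CPM in rDC, mast cell and basophil markers (2 of 12) to 33.4 to 46.6 CPM in mDC and 255 to 264 CPM in rDC, keratinocyte markers (3 of 11) to 24.2 to 28.8 CPM in mDC and 17.9 to 21.7 CPM in rDC, and stromal and endothelial markers (8 of 14) to 30.4 to 41.2 CPM in mDC and 193 to 198 CPM in rDC. By gene, 3 of the neutrophil markers were lower and none higher, both mast cell markers were lower, 2 keratinocyte markers were higher and 1 lower, and 5 stromal and endothelial markers were higher and 2 lower. The stromal and endothelial list thus had a median of 1.38, opposite in direction to its sum. That median was -0.55 (LN cisplatin), -2.12 (TDLN PBS) and -0.57 (TDLN cisplatin) in the other conditions. Of 8 melanocyte markers 1 was tested, Kit, which dendritic cell precursors also express. Kit was also 1 of the 2 mast cell and basophil markers tested. It made up most of their sums, with a mean of 37.4 CPM in mDC and 244 CPM in rDC. The part of these cells in the gene groups above was not tested.

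**Figure D4:**
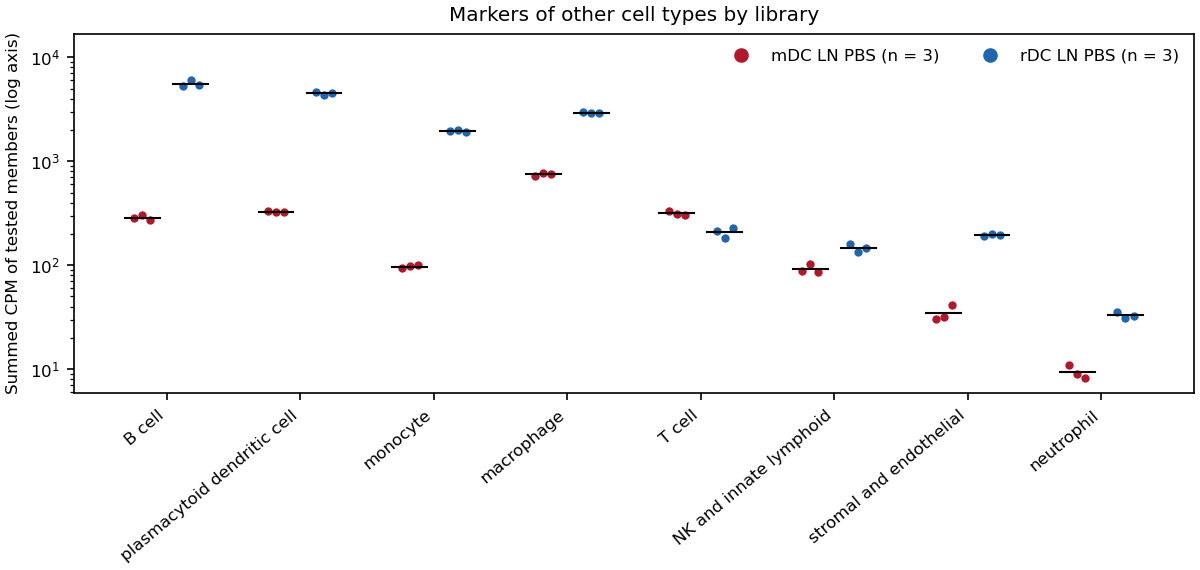
Summed CPM of the tested members of 8 marker lists on a log axis, with 1 point per library, mDC LN PBS left of rDC LN PBS, and a bar at the mean of 3 libraries. B cell, plasmacytoid and monocyte sums are more than 10 times lower in mDC, and T cell sums are 1.51 times as high in mDC. The median log2 fold change of the T cell markers was below 0 in the other 3 conditions.

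Receptors that sense and take up microbes were mostly lower in mDC. Of 33 tested pattern receptors and their adaptors 22 were lower and 5 higher (median -0.96), and of 31 endocytic and lectin receptors 20 were lower and 6 higher (median -1.71). Ly75, or DEC-205, was an exception, with 357 ± 45.2 CPM in mDC and 53.2 ± 2.07 CPM in rDC (2.74 ± 0.087). Of 31 tested lysosomal genes 19 were lower and 8 higher (median -0.65).

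Cytokine genes divided evenly, with 21 higher and 17 lower of 46 tested. Csf1, the macrophage growth factor, averaged 151 ± 13.8 CPM in mDC and 6.82 ± 0.48 CPM in rDC (4.47 ± 0.099), Tnf 90.2 ± 11.4 CPM in mDC and 14.5 ± 1.47 CPM in rDC (2.63 ± 0.14) and Il6 16.9 ± 4.07 CPM in mDC and 3.29 ± 0.249 CPM in rDC (2.36 ± 0.26). Tgfb1 and the receptor genes Tgfbr2 and Ifngr1 were lower (-2.70 ± 0.10, -2.75 ± 0.10 and -2.03 ± 0.13). Transcription factors of dendritic cells also divided, with 21 higher and 20 lower of 44. In the retinoid and tolerance list, 11 of 22 tested genes were higher and 8 lower. Aldh1a2, which makes retinoic acid, had 184, 223 and 187 CPM in the mDC libraries, against 1.71, 1.59 and 2.59 CPM in the rDC libraries (6.61 ± 0.13, adjusted p = 2.8e-26), and Itgb8, whose integrin activates TGF-beta, averaged 21.2 ± 3.89 CPM in mDC and 0.793 ± 0.411 CPM in rDC (4.65 ± 0.32).

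Survival, lipid and motility genes were higher more often than lower. Of 29 tested genes of cell death and survival 20 were higher and 7 lower (median 1.22). Bcl2l1, or BCL-XL, averaged 129 ± 2.87 CPM in mDC and 12.8 ± 0.993 CPM in rDC (3.32 ± 0.095), Cflar, the inhibitor of caspase 8, 501 ± 47.1 CPM in mDC and 63.5 ± 6.46 CPM in rDC (2.98 ± 0.084), and the death receptor Fas 105 ± 15.3 CPM in mDC and 6.42 ± 0.615 CPM in rDC (4.03 ± 0.12), while Bcl2 was lower (5.13 ± 2.93 CPM in mDC and 37.6 ± 2.64 CPM in rDC, -2.95 ± 0.24). Of 29 cholesterol and lipid genes 16 were higher and 9 lower, with the synthesis gene Idi1 at 3.97 ± 0.14 and the fatty acid carrier Fabp5 at 4.41 ± 0.10, against the exporter Abca1 at -2.74 ± 0.13 and Apoe at -1.69 ± 0.12. Of 40 cytoskeleton genes 24 were higher and 11 lower. Beside Fscn1 the unconventional myosin Myo1g (2.26 ± 0.071) and the GTPase-activating protein gene Arhgap31 (4.52 ± 0.09) were higher, and the GTPase Rac2 was lower (-2.84 ± 0.11). Actb was higher by 0.60 ± 0.099, a call that was lost with no filter on low counts (adjusted p = 0.0998).

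Of 30 cell cycle genes, all tested, 25 were lower in mDC and 1 higher, with a median of -0.90. Top2a, a topoisomerase of dividing cells, averaged 14.1 ± 0.951 CPM in mDC and 36.7 ± 3.71 CPM in rDC (-1.38 ± 0.18) and the ribonucleotide reductase gene Rrm2 8.09 ± 1.86 CPM in mDC and 42.5 ± 1.18 CPM in rDC (-2.39 ± 0.19). Mki67, the gene of the Ki-67 antigen, ran against its list, with 73.8, 88.8 and 75 CPM in the mDC libraries, against 21.5, 21.8 and 23.6 CPM in the rDC libraries (1.82 ± 0.13). Of 32 type I interferon response genes 21 were lower and 4 higher (median -0.77), and Mx1 and Usp18 were among the 4 (3.39 ± 0.11 and 1.90 ± 0.068). Of 25 early genes that tissue digestion can induce 9 were higher and 13 lower. The list thus did not move one way within LN PBS. Its median log2 fold change was -0.28 in LN PBS, and 0.43 (LN cisplatin), 0.36 (TDLN PBS) and -0.12 (TDLN cisplatin). The difference of LN PBS from the other conditions was called for 19 of the 25. It was negative for all 19, against 2905 negative calls among all 14548 genes. The part of digestion in this shift was not tested. Nr4a1 averaged 585 ± 20.3 CPM in mDC and 2871 ± 89.4 CPM in rDC (-2.30 ± 0.086) and Fos 1049.6 ± 25.6 CPM in mDC and 1985 ± 95.6 CPM in rDC (-0.92 ± 0.069), and the list summed to 18539 to 18992 CPM in mDC and 17966 to 18687 CPM in rDC.

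The widest gaps among genes of at least 4 CPM whose groups did not overlap lay partly outside these lists. Gal3st2, a sulfotransferase of glycans, had 85.1, 87.6 and 101 CPM in the mDC libraries, against 0.19, 0 and 0 CPM in the rDC libraries, a ratio of 1293-fold (95% counting interval 440.2 to 6288) from 586 and 3 counts. Clu, or clusterin, an extracellular chaperone, had 1276, 1298 and 1388 CPM in the mDC libraries, against 5.44, 2.56 and 4.59 CPM in the rDC libraries (8.25 ± 0.12, adjusted p = 9.21e-29). The delta opioid receptor gene Oprd1 averaged 145 ± 5.5 CPM in mDC and 0.536 ± 0.236 CPM in rDC (7.95 ± 0.16), the neuronal enolase gene Eno2 311 ± 26.1 CPM in mDC and 1.31 ± 0.301 CPM in rDC (7.84 ± 0.14), Synpo2, an actin-associated protein, 649 ± 48.1 CPM in mDC and 3.08 ± 0.773 CPM in rDC (7.67 ± 0.12), and the adhesion gene Dscaml1 307 ± 21.6 CPM in mDC and 1.54 ± 0.713 CPM in rDC (7.55 ± 0.13). Spata31d1b averaged 126 ± 1.1 CPM in mDC and 0.553 ± 0.513 CPM in rDC (7.64 ± 0.20). With Cxcl1, Cacnb3, Nudt17, Ccl22 and Cx3cl1 these are the 12 largest.

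At the other end Cd300c, an activating receptor of myeloid cells, had no count in any mDC library and 39.4, 35.7 and 36.2 CPM in the rDC libraries, at least 26.1-fold lower against a floor of 3 counts per library. Exosc6, a subunit of the RNA exosome, which all cells use, had no count in mDC either, at least 13.4-fold lower. Its fitted log2 fold changes elsewhere were -9.89 (LN cisplatin), -9.07 (TDLN PBS) and -3.57 (TDLN cisplatin). Cox6a2, a cytochrome oxidase subunit found in plasmacytoid cells, had 1 count over the mDC libraries, 344-fold (95% counting interval 61.6 to 13576) lower. Klra17, an NK receptor family member, and the kinase gene Pnck were lower by 79.2-fold (95% counting interval 27.1 to 385) and 61.5-fold (95% counting interval 17 to 509), and the pseudogene Rpl31-ps8, which can share reads with its parent, by 51.1-fold (95% counting interval 9.1 to 2023). Ly6c2, a monocyte and plasmacytoid surface protein, averaged 6.91 ± 2.39 CPM in mDC and 324 ± 19.1 CPM in rDC (-5.53 ± 0.14), and Rgs18 and Smim5 had -5.42 ± 0.46 and -5.35 ± 0.22. Siglech, Ccl4 and the noncoding gene Eldr (-5.84 ± 0.37) complete the 12. These intervals cover counting error only.

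With predicted genes such as Gm10800 left out, the most abundant genes that were at least 2-fold higher in mDC were H2-K1 (16902 TPM in mDC against 5604 TPM in rDC), the ferritin light chain Ftl1 (14824 against 5668 TPM), H2-D1, Ccr7 (10138 against 911 TPM), Nfkbia, Fscn1, Cd83 and B2m. Among those lower, Cd74, H2-Ab1, H2-Aa and H2-Eb1 led, followed by the ferritin heavy chain Fth1 (1744 against 4367 TPM), Ly6e (150.3 against 3285 TPM), Lyz2 and the lysosomal protein Psap (832 against 2555 TPM). The 2 ferritin chains thus went in opposite directions, with log2 fold changes of 1.59 ± 0.08 for Ftl1 and -1.07 ± 0.063 for Fth1.

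The same contrast was set against its mean in LN cisplatin, TDLN PBS and TDLN cisplatin within one fit. It differed for 4854 genes (33.4%), with a positive difference, LN PBS minus the others, for 1949 and a negative one for 2905. The sign is not the strength of the contrast: a negative difference can be a stronger contrast in a gene lower in mDC, as for Cd79a. After thinning it differed for 2172 genes, positive for 1053 and negative for 1119. The excess of negative differences was not seen with other scaling: with DESeq2 2301 were positive and 2173 negative, and with DESeq2's size factors in edgeR 2193 and 2163. For 9.41% of genes a called LN PBS change was opposite in sign to that mean. The maturation list had a median of 3.78 in LN PBS, and of 4.18 (LN cisplatin), 4.15 (TDLN PBS) and 4.08 (TDLN cisplatin). Ccr7 had 3.76 in LN PBS and 3.48 (LN cisplatin), 3.60 (TDLN PBS) and 4.06 (TDLN cisplatin) (difference 0.047 ± 0.066, adjusted p = 0.616). Cd86, lower in mDC of LN PBS (-0.57), had 0.41 (LN cisplatin), 0.58 (TDLN PBS) and 1.07 (TDLN cisplatin) (difference -1.26 ± 0.12, adjusted p = 2.53e-08). Cd80 had 0.46 in LN PBS and 2.05 (LN cisplatin), 1.82 (TDLN PBS) and 1.66 (TDLN cisplatin) (difference -1.38 ± 0.13, adjusted p = 1.53e-08).

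The median of the class II list was below 0 in each condition and nearest to 0 in LN cisplatin. Cd74 had -1.18 in LN PBS and -0.26 (LN cisplatin), -1.05 (TDLN PBS) and -1.10 (TDLN cisplatin) (difference -0.38 ± 0.10, adjusted p = 0.00608). H2-Ab1 had -1.95 and -0.64 (LN cisplatin), -2.16 (TDLN PBS) and -1.80 (TDLN cisplatin) (difference -0.42 ± 0.10, adjusted p = 0.0027), and the list medians were -1.31 in LN PBS, -0.45 (LN cisplatin), -1.31 (TDLN PBS) and -1.10 (TDLN cisplatin). Clu had 8.25 in LN PBS and 7.99 (LN cisplatin), 6.17 (TDLN PBS) and 5.34 (TDLN cisplatin) (difference 1.74 ± 0.16, adjusted p = 4.07e-09). Fscn1 had 6.42 and 8.31 (LN cisplatin), 6.58 (TDLN PBS) and 7.40 (TDLN cisplatin) (difference -1.01 ± 0.11, adjusted p = 9.36e-08). The B cell gene Cd79a had -4.36 and -3.41 (LN cisplatin), -2.78 (TDLN PBS) and -2.18 (TDLN cisplatin) (difference -1.57 ± 0.12, adjusted p = 3.55e-10), and the medians of B cell markers were -4.30, -3.25, -2.67 and -2.01 in the same order.

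**Figure D5:**
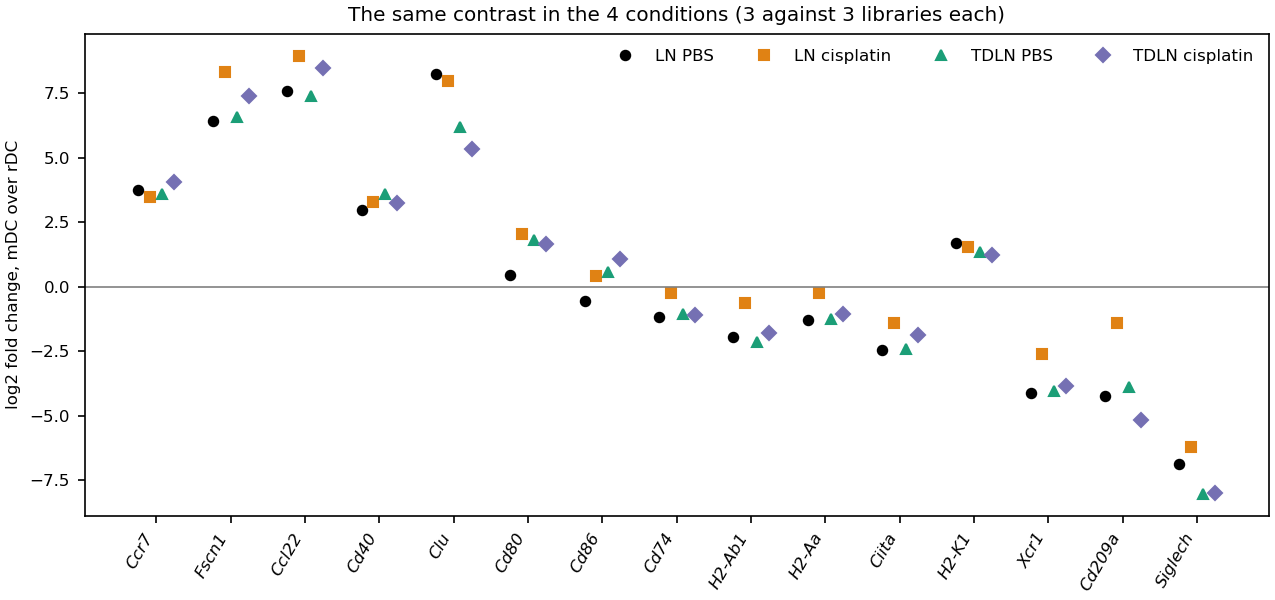
Log2 fold change of mDC over rDC for 15 genes in the 4 conditions, 1 point per condition from 3 against 3 libraries. Ccr7 stays between 3.48 and 4.06, Cd86 is below 0 in LN PBS and above 0 in the other 3 conditions, and Cd74 is nearest to 0 in LN cisplatin.

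The genes with the largest positive difference were AC166110.4 (4.29), the phosphodiesterase gene Pde2a (4.27), the mucin gene Muc16 (3.95), Gal3st2 (3.95) and the filaggrin relative Flg2 (3.54). AC166110.4, Muc16 and Flg2 averaged 8.48 against 0.847 CPM, 10.7 against 1.36 CPM and 11.5 against 2.05 CPM in mDC and rDC of LN PBS and were lower in mDC of TDLN PBS, as many genes of low level were. The largest negative differences were those of mt-Co3 (-8.80), Znrf2 (-3.29), Cul3 (-3.23), Ranbp9 (-3.11) and Heca (-2.73). mt-Co3, a mitochondrial gene, had 11.8, 22.5 and 4.57 CPM in the mDC libraries, against 0.19, 207 and 184 CPM in the rDC libraries, so that 1 rDC library lay below and the others far above the mDC range. Znrf2 and Cul3, both of the ubiquitin system, had 9.62 ± 1.41 CPM in mDC and 49.9 ± 1.92 CPM in rDC and 13.4 ± 1.77 CPM in mDC and 46.7 ± 4.44 CPM in rDC, and were higher in mDC of both TDLN groups.

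IL-33, an alarmin cytokine, is named in the title of the series. Il33 had 1.22, 3.37 and 2.29 CPM in the mDC libraries, against 0.253, 0.265 and 0.388 CPM in the rDC libraries (ENSMUSG00000024810, GRCm38 chromosome 19, 29925114 to 29960718, plus strand). All 3 mDC values were above the rDC values and the change was called (2.77 ± 0.66, adjusted p = 0.000608), but the gene lies in the low range described above, where 3 counts correspond to 1.22 to 1.69 CPM in mDC. In the other conditions its log2 fold change was -0.56 (LN cisplatin), 1.29 (TDLN PBS) and -0.48 (TDLN cisplatin) (difference 2.68 ± 0.74, adjusted p = 0.00637), and on log2(TPM + 1) with limma it was not called (adjusted p = 0.0628). After thinning it did not pass the filter on low counts. Il1rl1, the IL-33 receptor ST2, had 3.65, 0.562 and 2.74 CPM in the mDC libraries, against 2.03, 1.68 and 2.39 CPM in the rDC libraries, with overlapping groups (0.26 ± 0.50, adjusted p = 0.666).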

How the data were processed

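PolyA RNA of sorted cells was sequenced from stranded TruSeq libraries, per the labels' protocols. Per the submitters' processing notes STAR, RSEM 1.3.0, DESeq2 1.38.3 and GRCm38 were used. The authors deposited RSEM expected counts that hold whole numbers, next to TPM deposited by the authors, which served to compare levels between genes. Whether counting used strand is not given in the sources used here, so overlapping genes are uncertain. Columns named WT were read as LN by elimination. Of 55487 genes 99.4% had a symbol in GENCODE vM21.

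Genes were kept by filterByExpr, scaled by TMM and tested with edgeR 4.0.16 (R 4.3.3) in 1 model of the 8 dendritic cell groups (24 libraries); the biological coefficient of variation was 0.0898. Alternatives were DESeq2 1.42.0, its size factors, no filter, thinning, a replicate block, the 6 libraries alone, leaving out each, and limma 3.58.1 on log2(TPM + 1). Leaving out rDC TDLN CIS replicate 2, which stands apart, was chosen after seeing the data. On simulated counts 70% of 2-fold and 93% of 4-fold changes were recovered, with 10 unchanged genes called. There 100 genes changed by each fold, up and down alike, and the others were equal in both LN PBS groups. In the data 66.6% of genes were called, so the simulation does not test the scaling under such broad differences. Python 3.11.15 and matplotlib 3.10.9 drew the figures.

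The members, 33 gene lists and rules were chosen with earlier results of these data known. Named are the 12 largest changes per direction at 4 CPM or more without overlap, the 8 most abundant per direction that changed 2-fold, the 5 largest differences between conditions per direction, list members, Il33 and Il1rl1. Predicted genes, antigen receptor segments and sex chromosome markers were left unnamed, except Gm10800. Some list members are counted but not reported by name here.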

Additional observations from a re-analysis of the deposited data

Results flagged for a closer look

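For the genes named above, the contrast of mDC with rDC in LN PBS was set against its mean in the other 3 conditions, and those with an adjusted p under 0.05 in edgeR's quasi-likelihood test and a log2 difference of at least 1 are listed with that difference. It was positive, so that mDC minus rDC was larger in LN PBS, for Gal3st2 (3.95), Cxcl1 (1.69), Clu (1.74), Oprd1 (1.58), Synpo2 (1.06), Spata31d1b (1.21), Ly6c2 (1.15), Tnfrsf4 (2.02), Tnfrsf9 (1.33), Tnfsf4 (1.36), Il33 (2.68), Siglec1 (2.25), AC166110.4 (4.29), Pde2a (4.27), Muc16 (3.95), Flg2 (3.54) and Gm10800 (2.18). It was negative for Fscn1 (-1.01), Cd80 (-1.38), Cd86 (-1.26), Il15 (-1.13), Cd207 (-1.03), H2-Ob (-1.55), Btla (-1.58), Cxcr5 (-1.43), Cd79a (-1.57), Ms4a1 (-1.83), mt-Co3 (-8.80), Znrf2 (-3.29), Cul3 (-3.23), Ranbp9 (-3.11) and Heca (-2.73). Depth differed between mDC and rDC in LN PBS and the other way round in TDLN PBS, and its part in these differences was not tested. Groups of 3 libraries are too small for a test of single libraries.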

How the results depend on the processing

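The number of genes called between mDC and rDC in LN PBS stayed within 1.5 times 9684 under each alternative run. It was 7927 after thinning every library to 2.00 M counts, 9536 with DESeq2, 9601 with its size factors, 9914 with the 6 libraries alone, 8903 with limma on log2(TPM + 1) and 12356 with no filter on low counts. The count of at least 2-fold calls was 5664 and moved to 8669 with no filter, where 49857 genes were tested. The count for LN PBS against the other conditions was 4854 and moved to 2172 after thinning and to 12739 with no filter; it was 4857 without rDC TDLN CIS replicate 2. Leaving out each of the 6 libraries gave 8810 to 9397 calls, 5362 to 5691 calls of at least 2-fold and 3445 to 4770 for the difference between conditions.

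Higher and lower calls in mDC were 4586 and 5098, but 2948 and 5955 with limma on log2(TPM + 1). They were 4910 and 7446 with no filter, and 4959 and 4577 with DESeq2. The median over all genes relative to the reported fit shifted by -0.277 with limma on log2(TPM + 1) and by -0.431 with no filter, and by 0.081 with DESeq2's size factors. With no filter Ctss reversed to -0.026, Cd80, Actb, Flt3 and Tap1 were not called, and Cd207 was. With limma Cd80, Ctss, Il33, Ranbp9 and mt-Co3 were not called. DESeq2 did not call Pde2a and mt-Co3, and Ranbp9 and mt-Co3 each lost the call when 1 mDC library, the first and the third, was left out. Calls of the other named genes stood under the alternatives in which they could be fitted. These gene calls are of mDC against rDC in LN PBS. Differences between conditions were not followed gene by gene under the alternatives.

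Same-numbered mDC and rDC libraries had correlations of 0.05, 0.242 and 0.0446 in their deviations from the group means. Differently numbered libraries had -0.242 to 0.248. So few values cannot tell whether the numbers pair libraries, and the reported fit takes them as unpaired. A replicate block gave 9590 calls, 5641 of at least 2-fold and 4663 for the difference between conditions. The mDC depth of 2.00 to 2.69 M counts limits what can be said of genes under about 4 CPM.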
